A study of Mus musculus with 6 samples.

Results

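The surroundings of Myc and Pvt1 on mouse chromosome 15 were described from 426 accessible intervals, out of 323483 in the whole data set. The intervals are those that overlap the stretch from 61000000 to 63500000 on GRCm38.p6, which is 2.5 Mb long and holds a single protein-coding gene, Myc (61985341 to 61990361, gene ID 17869). The stretch was selected on the number of intervals assigned to Myc, one of the highest among genes, so the number of intervals in it is given as a description and not as a finding. The interval just inside the lower border was at 61096391 to 61096698 (308 bp) and the one just outside at 60929517 to 60929644 (128 bp). At the upper border the corresponding intervals were at 63489252 to 63489449 (198 bp) and 63511908 to 63512003 (96 bp).

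Accessible DNA was measured by ATAC-seq, in which a transposase cuts and tags open chromatin, in mouse embryonic fibroblasts of the strain M2-rtTA x TetO-Myf6, heterozygous for both alleles. All 6 libraries came from cells kept for 24 h in iMPC medium with 10 ng/mL bFGF. The medium group (2 libraries) received nothing further, the Myf6 group (2 libraries) received 2 µg/mL doxycycline to induce the muscle regulator Myf6, and the Myf6 with F/R/C group (2 libraries) received doxycycline with 5 µM forskolin, 5 µM RepSox and 3 µM CHIR99021. Because the transgene is induced through the reverse transactivator, doxycycline and Myf6 were always given together. The intervals are a consensus set with no value for any library, so differences between the 3 groups were not analysed here, the depth behind an interval is unknown and no value has a replicate error. As a check of the cell type, the 1 kb around a gene end held an interval at all 12 fibroblast marker genes, 2 of 6 macrophage and blood genes, 2 of 4 endothelial genes and 3 of 4 epithelial genes, against 75.5% of 21631 protein-coding genes.

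Myc is a basic helix-loop-helix leucine zipper transcription factor that drives growth and proliferation and binds E-box DNA with its partner Max. It sits in a gene desert, a long stretch without other protein-coding genes, and enhancers far from the gene on either side are known to act on it in different tissues. Pvt1 is a long noncoding RNA gene that follows Myc in the same direction of transcription. It was found as a site of chromosome breaks and of retroviral insertions in mouse tumours, and the human PVT1 promoter and gene body are known to hold elements that influence MYC. Myc is also a known target of beta-catenin with TCF/LEF factors, which CHIR99021 activates through inhibition of glycogen synthase kinase 3, and of repression by TGF-beta, whose type I receptor RepSox inhibits. Here "below" means toward lower coordinates, the side from which transcription of Myc starts, and "above" means toward higher coordinates, the side of Pvt1.

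Of the 19 RefSeq genes in the stretch, 9 had entries in the promoter table, all for long noncoding RNAs, and Myc and Pvt1 had none. The 10 entries (Gm29904 has 2) each hold 250 bases before and 50 bases after a start site, on GRCm38.p6. None of the 10 overlapped an interval. The promoters of Gm38563, the one with the largest share of its length in intervals, of D030024E09Rik, the one nearest to Myc on the lower side, and of Gm30113, the one with an interval closest by, are shown in the direction of transcription. Capitals mark matches to an E-box (CANNTG) or a TATA motif (TATAAA) on either strand, where overlapping matches run together.
Gm38563, chr15:61156907-61157206, plus strand: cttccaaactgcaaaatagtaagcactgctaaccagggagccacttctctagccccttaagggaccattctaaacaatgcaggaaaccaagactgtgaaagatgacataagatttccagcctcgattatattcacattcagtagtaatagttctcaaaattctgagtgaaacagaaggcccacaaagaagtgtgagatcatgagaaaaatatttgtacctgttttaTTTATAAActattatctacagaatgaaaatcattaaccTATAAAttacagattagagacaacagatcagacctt
D030024E09Rik, chr15:61774402-61774701, minus strand: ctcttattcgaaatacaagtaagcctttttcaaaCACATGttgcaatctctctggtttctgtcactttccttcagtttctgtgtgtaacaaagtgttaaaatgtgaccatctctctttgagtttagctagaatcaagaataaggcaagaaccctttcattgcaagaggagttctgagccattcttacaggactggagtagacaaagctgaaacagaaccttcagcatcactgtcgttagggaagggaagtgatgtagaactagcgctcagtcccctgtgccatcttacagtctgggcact
Gm30113, chr15:62953966-62954265, plus strand: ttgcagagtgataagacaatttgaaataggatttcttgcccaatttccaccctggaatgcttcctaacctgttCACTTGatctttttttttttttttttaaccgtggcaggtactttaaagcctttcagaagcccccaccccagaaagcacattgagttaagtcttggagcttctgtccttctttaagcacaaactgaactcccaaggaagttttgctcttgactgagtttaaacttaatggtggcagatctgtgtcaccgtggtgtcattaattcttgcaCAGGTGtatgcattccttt

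These promoters were poor in CpG, the dinucleotide that is dense in promoters of many broadly used genes. The 10 entries held 0 to 4 CpG each, with a median of 1.5 and a median GC content of 40.0%. Over the 32619 promoters of the autosomes and the X chromosome, the 18301 that overlapped an interval had a median of 18 CpG and the 14318 that did not had a median of 3. Among all 11574 long noncoding RNA promoters, 36.0% overlapped an interval, and among 21045 protein-coding promoters 67.1% did. At Gm30113, an interval of 967 bp (62952993 to 62953959) ended 7 bp before the printed window. At Gm38563, an interval of 1104 bp (61157472 to 61158575) began 266 bp after it, inside the gene. The nearest interval to the D030024E09Rik window was 422 bp wide and lay 1563 bp away. Farthest from any interval was the Gm30159 window, at 9.77 kb.

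E-box matches were common in these windows and in promoters in general. An E-box was found in 9 of the 10 windows and in 72.3% of all promoters of the same length, so the motif does not set them apart, and Gm38563 was the window without one. TATAAA was found in 3 of the 10 windows against 13.7% of all promoters, with 3 matches in Gm38563. This motif holds only A and T, and the median GC content was 40.0% in the windows against 53.0% over all promoters. The part of base content in this difference was not tested. The motif of TCF/LEF factors (CTTTGAT) was found in 1 window, that of Gm29904 that starts at 61288191, against 3.76% of all promoters. The AP-1 motif (TGANTCA) and the cAMP response element (TGACGTCA) were found in none of the 10, against 7.85% and 1.80%. Both strands were searched, and a match is a description of letters and not of binding.

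The start of Myc lay in one of the widest intervals of the stretch. The lower end of Myc lay in an interval of 1666 bp, from 61984242 to 61985907, with 1099 bp before the first base of the gene and 567 bp from it on. A separate interval of 1403 bp, from 61986636 to 61988038, lay inside the gene. Together they covered 39.2% of Myc, against a median of 14.5% over 3508 protein-coding genes of 3 to 8 kb, of which 5.99% had cover as high. No interval crossed the upper end of Myc. Within 5 kb of the gene, an interval of 557 bp (61983157 to 61983713) lay 1628 bp below, and intervals of 240 bp (61991279 to 61991518) and 963 bp (61991828 to 61992790) lay 918 and 1467 bp above. An end interval as wide as that of Myc was found at 16.7% of protein-coding genes, and the median over genes with an end interval was 1243 bp.

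Myc was also alone among protein-coding genes over a long distance. The nearest protein-coding genes, A1bg (60917589 to 60921270), 1064 kb below, and the gasdermin gene Gsdmc (63775971 to 63808739), 1786 kb above, had no interval over the gene or at an end. The nearest with an interval at an end, picked after the values were seen, were Lratd2, 1159 kb below (620 bp), and Cyrib, 1939 kb above (2052 bp). To reach them, 1 protein-coding gene without an end interval was passed over below and 4 above. By this choice of Lratd2 and Cyrib, no protein-coding gene between them other than Myc could have an interval at an end.

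Genes of the Myc network, which share its DNA site or its partners, had accessible gene ends too. All 13 listed genes had an end interval, that is, an interval no more than 1 kb from either gene end, against 75.5% of protein-coding genes. The widest end interval per gene had a median of 1472 bp. Over protein-coding genes with an end interval the median was 1243 bp, and over all of them, with 0 for genes without one, 1034 bp. The relatives Mycn and Mycl had end intervals of 2030 and 2186 bp, both wider than that of Myc. For Max, the shared partner, the value was 1418 bp. Among the antagonists that compete for Max it was 1143 bp at Mxd1, 1506 bp at Mxd3, 1671 bp at Mxd4, 604 bp at Mxi1 and 1392 bp at Mnt. Thus Mxi1 had the narrowest end interval of the 13 genes, while the widest interval over the gene itself was 1686 bp. Which start of a gene is in use is not known here.

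Pvt1, on chromosome 15 from 62037986 to 62260215 (gene ID 19296), began in the widest interval of the stretch and was dense with intervals along its whole length. The interval at its lower end, from 62037682 to 62039586, was 1905 bp wide and lay 47.3 kb above Myc. It took in 304 bp before the first base of Pvt1 and 1601 bp of the gene. In all, 77 intervals overlapped the 222 kb of Pvt1, which is 34.6 per 100 kb, and they covered 16.8% of it. Over 276 long noncoding RNA genes of 100 to 500 kb the median was 10.5 per 100 kb, and 5 genes, Pvt1 included, had a density as high. Those were Gm40121 (44.5), Morrbid (40.6), 4930511A08Rik (36.4), 8030451A03Rik (35.4) and Pvt1. Among 2200 protein-coding genes of the same lengths the median was 18.0, and 4.50% were as dense as Pvt1. As Pvt1 lies in a stretch chosen for its intervals, its place among both sets of genes is a description with no test.

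**Figure D1:**
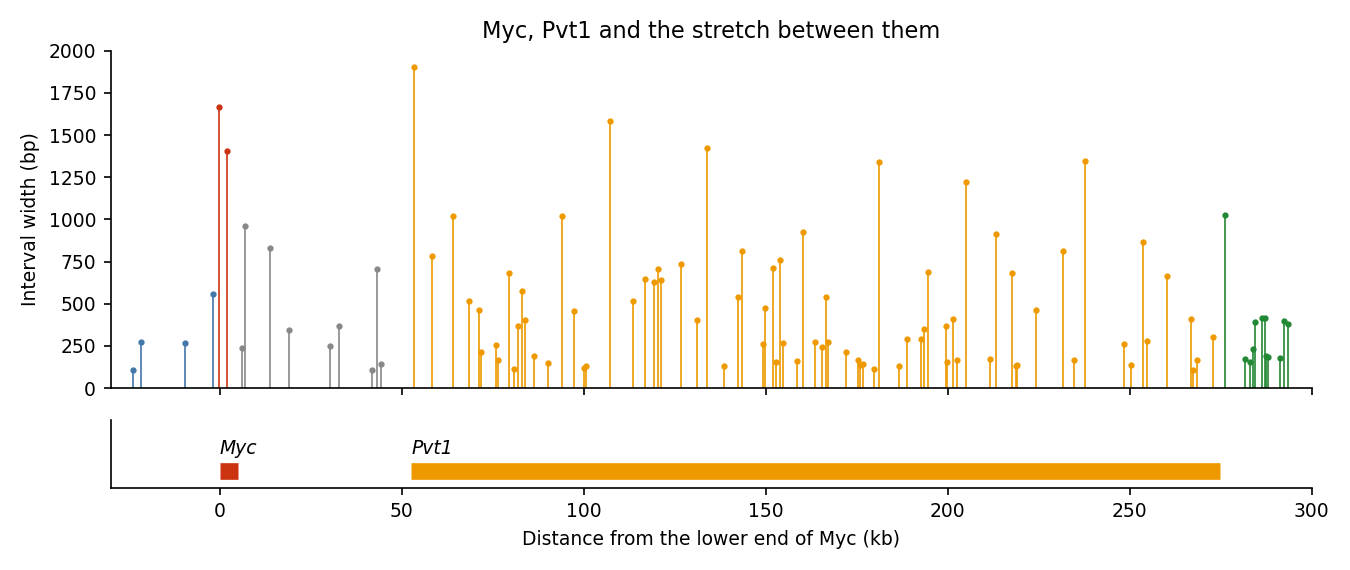
Interval width (bp, vertical axis) by distance from the lower end of Myc (kb), 1 line and point per interval, with the spans of Myc and Pvt1 drawn to scale underneath. Colours give Myc (red), Pvt1 (orange), the stretch between them (grey), the side below Myc (blue) and the side beyond Pvt1 (green). The 1666 bp interval at Myc and the 1905 bp interval at Pvt1 stand at the starts of both genes, and 77 intervals run on along Pvt1.

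The intervals of Pvt1 were not gathered at its start. Cut into 5 equal parts of 44.4 kb, the gene held 16, 13, 20, 16 and 12 intervals by midpoint from its lower to its upper end. Each part had at least 1 interval of 1000 bp or more, and the first had 3. The widest after the start were at 62091757 to 62093337 (1581 bp), 62118388 to 62119812 (1425 bp) and 62222455 to 62223801 (1347 bp), all inside the gene. The longest stretch of Pvt1 without an interval was 9.73 kb, and 15 of the 76 spaces between its neighbouring intervals were shorter than 500 bp. An interval of 1025 bp, from 62260990 to 62262014, followed the upper end of the gene. The pseudogene Macroh2a3, inside the span of Pvt1, had none over its 1.91 kb.

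Between Myc and Pvt1, 9 intervals lay in 47.6 kb, or 18.9 per 100 kb. They measured 106 to 963 bp with a median of 342 bp, and none reached 1000 bp. By density this stretch lay between the side below Myc (14.4 per 100 kb) and Pvt1 (34.6).

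The sides of Myc differed most close to the gene. Within 300 kb, 31 intervals lay below and 99 above, which is 10.3 and 33.0 per 100 kb. In the first 100 kb there were 9 below and 28 above, in the next 100 kb 11 and 40, and in the third step 11 and 31. Pvt1 spans most of these 300 kb on the upper side. From 300 to 500 kb the numbers were 16 and 16 below and 21 and 23 above. From 500 kb on the order turned, with 27, 16, 15 and 21 intervals per 100 kb below, up to 900 kb, and 13, 14, 8 and 12 above. The step with the most intervals was 500 to 600 kb away on the lower side and 100 to 200 kb away on the upper side.

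**Figure D2:**
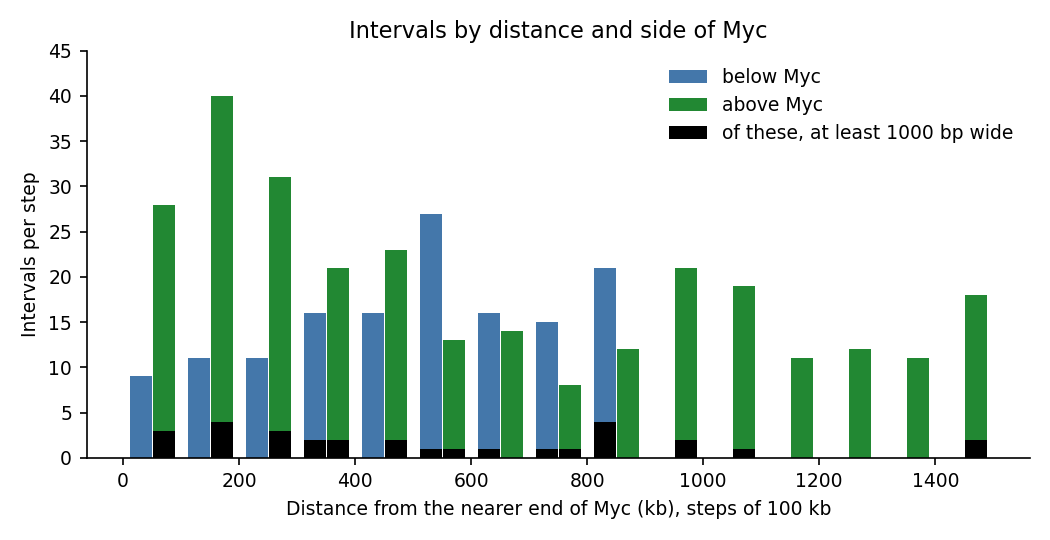
Number of intervals (vertical axis) in full steps of 100 kb from the nearer end of Myc (horizontal axis, kb), below Myc in blue and above in green, with intervals of at least 1000 bp in black within each bar. The upper side is higher in each step to 500 kb (28, 40, 31, 21 and 23 against 9, 11, 11, 16 and 16) and the lower side in each step from 500 to 900 kb (27, 16, 15 and 21 against 13, 14, 8 and 12).

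Wide intervals were unevenly placed as well. Of the 32 intervals of at least 1000 bp, 9 lay below Myc, 2 over it and 21 above. None of the 9 lay within 300 kb of the gene, the nearest being at 61682308 to 61683353 (1046 bp), 302 kb away, and 7 were beyond 500 kb. Above Myc, 10 of the 21 lay within 300 kb. Below Myc the widest was at 61108765 to 61110143 (1379 bp), 875 kb from the gene, and 4 of the 9 lay 800 to 900 kb away. As width is the extent of joined peaks, it is not a level of signal.

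Over equal distance, 985 kb on either side, 142 intervals lay wholly below and 208 above, or 14.4 and 21.1 per 100 kb. Without the span of Pvt1 the upper side had 131 in 763 kb, or 17.2 per 100 kb, which is 1.19 times the lower side. Over the whole stretch above Myc, to 1510 kb, 282 intervals gave 18.7 per 100 kb. The count below Myc includes a border stretch without intervals, described next, and from the lowest interval on the density was 15.97.

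The longest stretches without intervals lay on the lower side of Myc. From 60929645 to 61096390, 167 kb held no interval, of which 96.4 kb belong to the stretch described here. Inside, the longest was from 61798254 to 61860649 (62.4 kb), followed by 61900032 to 61961519 (61.5 kb), which reach from 187 to 125 kb and from 85.3 to 23.8 kb below Myc. The longest above Myc was from 62501576 to 62547941 (46.4 kb). Of 15 spaces of at least 20 kb, 7 lay below Myc, 8 above beyond Pvt1 and none within Pvt1. Sequence that reads cannot be placed on was not analysed here, so its part in these stretches was not tested.

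**Figure D3:**
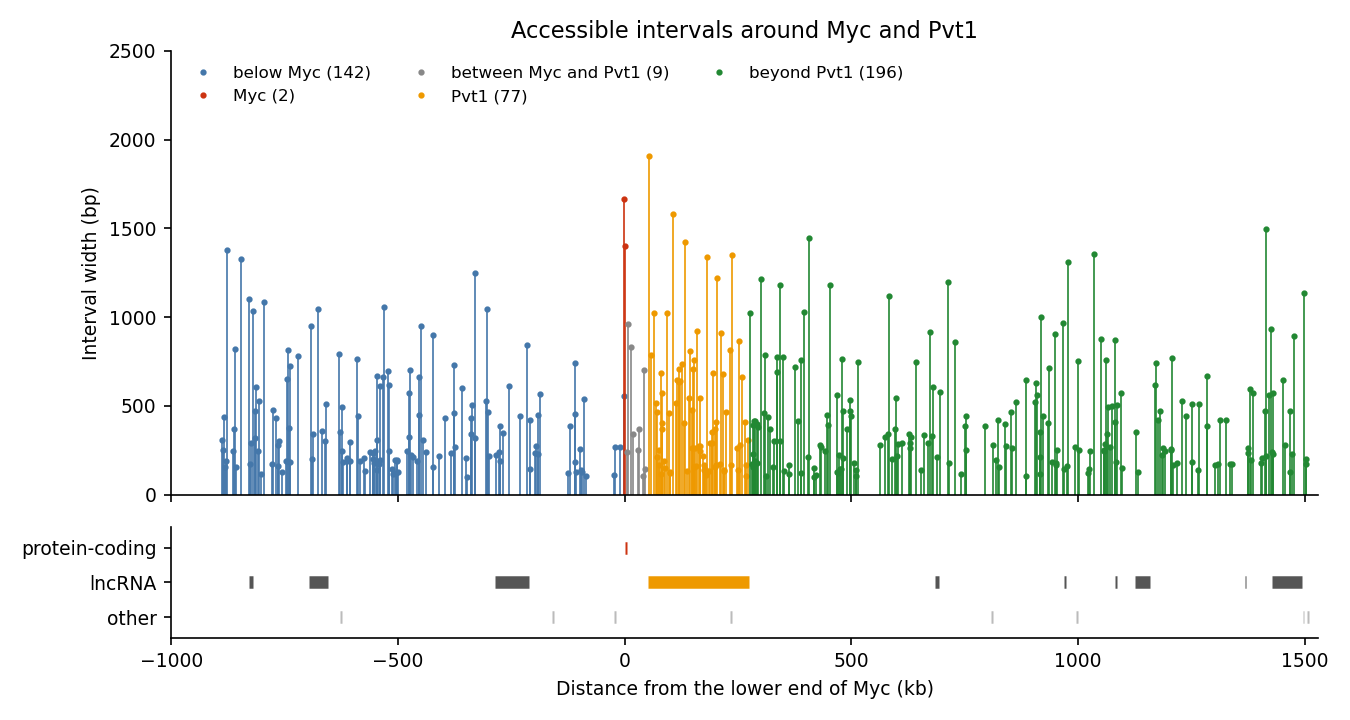
All 426 intervals by distance from the lower end of Myc (kb, horizontal axis) and width (bp, vertical axis), coloured by position, with the number in each position in brackets. The lower panel shows the RefSeq genes as bars (protein-coding, lncRNA and other; very short genes are widened to 4 kb so that they can be seen). Intervals thin out just below Myc, where stretches of 62.4 and 61.5 kb are empty, and crowd over Pvt1 and just past its upper end.

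Beyond Pvt1, 196 intervals followed to the upper border, in 1240 kb, or 15.8 per 100 kb. By windows of 50 kb, the 5 with the most intervals were those starting at 62150000 (21 intervals), 62250000 (20), 62100000 (19), 62050000 (18) and 62450000 (16), against a median of 9. Of these the first 4 overlapped Pvt1 and the window at 62450000 did not. In the window at 62250000, which takes in the upper end of Pvt1, 4 of the 20 intervals lay over the gene and 16 in the 39.8 kb beyond it, or 40.2 per 100 kb, so the crowding did not end with the gene. Wide intervals beyond Pvt1 included those at 62392244 to 62393687 (1444 bp, 402 kb above Myc), 62962105 to 62963414 (1310 bp, 972 kb), 63020415 to 63021772 (1358 bp, 1030 kb) and 63399640 to 63401135 (1496 bp, 1409 kb). The last was the widest interval of the stretch that overlapped neither Myc nor Pvt1. Outside the borders there were 10.2 intervals per 100 kb over the 500 kb below and 11.0 over the 500 kb above, against 17.0 in the stretch. The empty 167 kb at the lower border lies partly inside and partly outside the stretch, so the density did not fall at that border itself. The value of 17.0 includes Pvt1. Toward the upper border, the steps of 100 kb from 1100 to 1500 kb above Myc held 11, 12, 11 and 18 intervals, so most were near the 11.0 found outside.

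The other noncoding genes of the stretch varied in how much of their length lay in intervals. Of the 10 long noncoding RNA genes, Pvt1 included, 9 had an interval over the gene and 5 had one within 1 kb of an end. Gm38563, 818 kb below Myc, had 4 in 9.81 kb, the widest of 1104 bp, and 26.6% of its length covered. D030024E09Rik, a gene of 75.2 kb below Myc, had 8 (10.6 per 100 kb), none at an end. Gm29904 had 7 in 42.9 kb and Gm20740 had 8 in 65.2 kb (12.3 per 100 kb), the latter 1424 kb above Myc. Gm41334, of 3.27 kb, had 2, which covered 5.67% of it, and Gm41335 had none. Of the 8 pseudogenes and small RNA genes, none had an interval over the gene and 3 had one within 1 kb of an end. Shares over all genes of these types and lengths were not analysed here, so these counts are a description only.

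Widths in the stretch were close to those of the whole data set. The median was 324 bp (quartiles 192 and 574 bp), against 336 bp (185 and 607 bp) over the autosomes and the X chromosome. It was 303 bp below Myc, 370 bp over Pvt1 and 334 bp beyond it. Wide intervals of at least 1000 bp made up 7.51% (95% Wilson interval 5.37 to 10.4%), 6.34% below Myc (3.37 to 11.6%), 10.4% over Pvt1 (5.36 to 19.2%) and 6.63% beyond it (3.92 to 11.0%). The difference between these positions was not tested. Over the autosomes and the X chromosome the share was 8.71% (8.62 to 8.81%), and over chromosome 15 it was 8.63% (8.18 to 9.11%). Wilson intervals cover counting error only, and neighbouring intervals are not independent. Among intervals that had no protein-coding gene within 100 kb, 27 of 387 in the stretch (6.98%, 4.84 to 9.96%) and 4.46% of 46397 in the genome (4.28 to 4.65%) were that wide.

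Set beside the rest of the genome, the stretch had a common number of intervals for its length and a high number for its lack of genes. It held 17.0 intervals per 100 kb, against 12.3 over the genome and 13.5 over chromosome 15, and 7.40% of its sequence was covered. Among 1042 windows of 2.5 Mb the median was 315 intervals, and 27.6% had at least 426. Among the 77 windows with at most 1 protein-coding gene the median was 73, and none had as many as 426. Windows were laid from the first base of each chromosome, and sequence that reads cannot be placed on was not left out. Chromosome starts can be empty, as from 178961 to 3029917 on chromosome 14 (0 intervals), which can lower this median. This comparison was added after the data were seen. Since the stretch was chosen for its intervals, its place among windows is a description with no test.

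The gaps on both sides of Myc were dense among gaps between neighbouring protein-coding genes. Because Myc was chosen for its many intervals, their ranks here are also a description with no test. Of 281 gaps of at least 1 Mb, that from Myc to Gsdmc (1786 kb) held the most intervals, 321, and 4 had a higher density than its 18.0 per 100 kb. Those 4 lay between Plpp3 and Usp24 (22.9), Klf4 and Actl7b (20.8), Mctp2 and Rgma (20.5), and Id2 and Rnf144a (18.4). From A1bg to Myc (1064 kb) there were 145 intervals, including the one that reaches into Myc, or 13.6 per 100 kb, and 8.54% of the gaps were as dense. The median gap had 4.36 per 100 kb, with quartiles of 2.02 and 8.12. Gaps at chromosome starts were kept, among them empty ones such as LOC102641086 to H2-Q8 on chromosome 17 (328762 to 1642937, 0 intervals). Their presence can lower the median, the quartiles and the share of gaps as dense as those of Myc. By intervals of at least 1000 bp per Mb, the gap above Myc had rank 3 with 12.9 and the gap below had rank 12 with 9.40, against a median of 1.33. The 10 such intervals of the gap below include the one of 1666 bp that reaches into Myc, and 9 lay wholly below the gene.

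**Figure D4:**
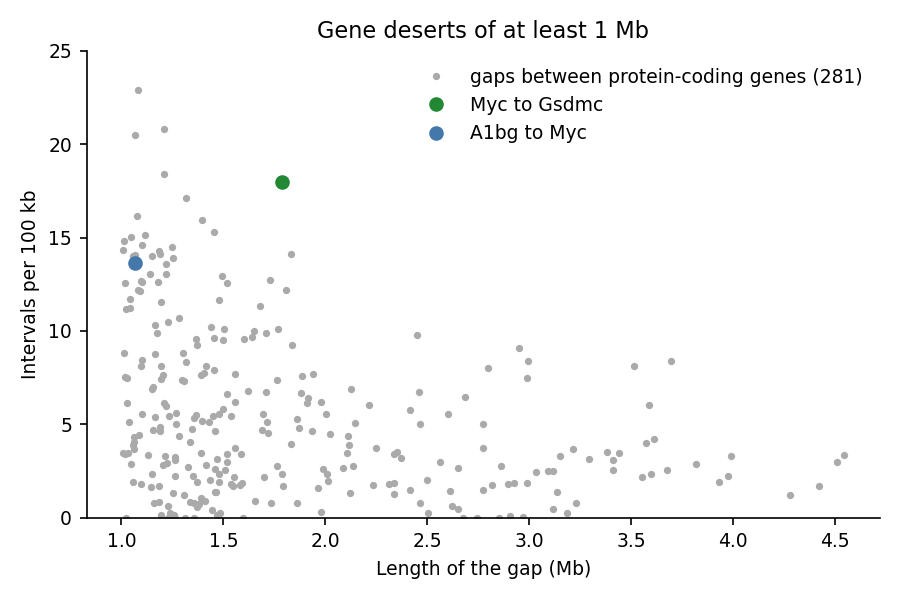
Intervals per 100 kb (vertical axis) by length in Mb (horizontal axis) for 281 gaps of at least 1 Mb between neighbouring protein-coding genes, 1 point per gap. The gap from Myc to Gsdmc (green, 18.0) lies above all 102 gaps that are longer (highest 14.1), and that from A1bg to Myc (blue, 13.6) lies above the upper quartile of 8.12. Empty gaps at chromosome starts are included.

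Mycn, the relative of Myc that is known from the nervous system, lies on chromosome 12 from 12936093 to 12941836, also with few genes nearby. Within 1 Mb it had 128 intervals below and 130 above, with 1 and 2 other protein-coding genes. For Myc the same distance held 143 below, including the one that spans its lower end, and 211 above, with no other protein-coding gene. The count below differed little between both genes, and the count above was higher at Myc. Because Myc was chosen for its many intervals, this comparison is a description with no test. Pvt1 lies on the upper side of Myc, and its part in the difference was not tested. Mycl, on chromosome 4 from 122995588 to 123002490, had 49 below with 5 other protein-coding genes and 248 above with 18.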

How the data were processed

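ATAC-seq was made from 6 libraries of 3 groups. The submitters' processing notes name GRCm38.p6 and the tools BWA, DESeq2 and MACS2. Versions, roles, peak calling and joining are not given in the sources used here. Per the file headers, HOMER annotatePeaks was run by the authors on consensus peaks with GENCODE vM23. The deposited table gives each interval's chromosome, start and end, 1-based. Its score column, as deposited, is 0 throughout and was not used. No column names a library, so no test, depth or replicate error could be had. An interval may come from 1 group, and a wide one may join several peaks.

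Intervals belonged to a stretch when they overlapped it. Gene positions and promoters came from RefSeq on GRCm38.p6 (21631 protein-coding genes on autosomes and X). The gene table has no strand. Interval functions were checked on simulated data. Scripts ran in Python 3.11.15 with pandas 2.3.3, numpy 2.4.6, matplotlib 3.10.9 and scipy 1.17.1. Members, lists and the rule for named items (region genes, intervals near Myc and Pvt1 ends, the 10 widest, the 5 densest windows, the 3 longest gaps) were chosen with earlier results of these data known. The printed promoters were picked after their values were seen.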

Additional observations from a re-analysis of the deposited data

How the results depend on the processing

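No paired analysis was possible because the intervals carry no value per library, and for the same reason no library could be left out. With intervals of at least 300 bp only, the stretch held 224 (median width 560.5 bp), with 7.31 per 100 kb below Myc, 9.94 above and 18.9 in Pvt1. With at least 600 bp it held 103 (median 812 bp), with 3.25 below, 4.57 above, 11.25 in Pvt1, 3.74% of the sequence covered and a longest empty stretch of 156.5 kb. The fewer intervals in these settings follow from the minimum width itself. The ratio of the densities above and below Myc was 1.30 and lay between 1.19 and 1.49 in every setting for which it was computed. It was not computed with the empty border stretch left out. There the density below was 15.97 per 100 kb (chosen after seeing the data), against 18.68 above. Joining intervals less than 500 bp apart gave 374, of which 51 reached 1000 bp. When stretches up to the border count, the longest without an interval was 96.4 kb (chosen after seeing the data). By midpoint, or without intervals at gene ends, 1 interval lay over Myc. Among gaps of at least 500 kb, 17.6% were as dense as that below Myc and 7.48% as that above. Among windows with at most 1 protein-coding gene, 0% held as many intervals (chosen after seeing the data), against 27.6% of all windows. In 53 of 72 alternatives the value stayed within 1.5 times the reported one. Some of these could not move, such as the 32 intervals of at least 1000 bp under a minimum width of 300 or 600 bp. Depth is unknown, so sites too weak to be called cannot be told from closed ones.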
